A study of Mus musculus with 24 samples.

Results

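The genes of 3 families of conjugating enzymes were followed in the brain and the liver of mice that lacked a single phenylalanine tRNA gene. They were the UDP-glucuronosyltransferases (UGT), the cytosolic sulfotransferases (SULT) and the cytosolic glutathione S-transferases (GST), the last counted together with the kappa form of mitochondria and peroxisomes. Members were all protein-coding genes whose symbols begin with Ugt1, Ugt2, Ugt3, Sult, Gsta, Gstm, Gstp, Gstt, Gstk or Gsto followed by a letter or digit, a rule that reads symbols alone. The rule found 65 of the 55469 listed genes: 21 UGT genes (9 Ugt1, 10 Ugt2 and 2 Ugt3), 21 Sult genes and 23 GST genes (6 Gsta, 7 Gstm, 4 Gstt, 3 Gstp, 2 Gsto and 1 Gstk). A mean of at least 10 normalised counts over the 12 samples of a tissue was needed for a test, and 46 members reached it in the liver and 21 in the brain.

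These enzymes carry out phase II metabolism, in which a polar group is joined to a drug, hormone, bile pigment or reactive lipid so that it can leave the cell. UGT enzymes, in the endoplasmic reticulum, transfer glucuronic acid from UDP-glucuronate, SULT enzymes transfer sulfate from the activated sulfate donor PAPS, and GST enzymes add the tripeptide glutathione to electrophiles. Hepatocytes are rich in all 3 families. Many members are neighbours that arose by gene duplication and are controlled by nuclear receptors such as PXR and CAR, by the aryl hydrocarbon receptor and by the antioxidant regulator NRF2.

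The 4 genotypes were wild type (WT) mice and 3 lines that each lacked both copies of 1 gene, named tRNA-Phe-1-1-/- (gene GAA-1-1), tRNA-Phe-2-1-/- (gene GAA-2-1) and tRNA-Phe-3-1-/- (gene GAA-3-1). The deletions were made with a CRISPR-Cas9 guide injected into embryos on a C57BL/6N background and were carried to homozygosity by breeding, so that every cell of the animal lacked the gene. The RNA libraries hold no measure of the deleted tRNA genes that was used here, and the deletions were not checked. The study's methods describe males on chow in a light-dark cycle of 12 h each, matched for age and litter. They also state that mice of different litters were used. The reporting summary gives an age of 10 weeks and names both sexes for the study as a whole. RNA came from brain or liver, and there were 3 replicates (A, B and C, separate mice) per genotype and tissue, which made 24 libraries. Whether the brain and the liver of the same letter came from 1 mouse is not given in the sources used here. Values are normalised counts, which are read estimates divided by 1 size factor per library. Fold changes are differences of log2(normalised count + 1), which understate the change of low genes, and are given with their standard error (SE). Each fit covered the 12 libraries of a tissue, so all 3 lines were compared with the same 3 WT samples. In pieces of whole tissue, fewer cells of a type and less RNA per cell cannot be told apart.

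The libraries held 30365760 to 51584522 recovered reads. In the liver, the 5 hepatocyte markers (Alb, Ttr, Apoa1, Tat and Serpina1c) were detected throughout and none was called in any line against WT. Their summed level was 2501656 to 3048151 normalised counts in WT, 1909736 to 2357413 in tRNA-Phe-1-1-/-, 2047594 to 2347001 in tRNA-Phe-2-1-/- and 2669602 to 3098864 in tRNA-Phe-3-1-/- livers. Of the 5 leucocyte markers, 4 were tested, and the neutrophil genes S100a8 (log2 fold change 2.52 ± 0.70) and S100a9 (2.56 ± 0.65) were higher in tRNA-Phe-1-1-/- livers. The summed leucocyte level was 665 to 909 in WT and 878 to 1559 in tRNA-Phe-1-1-/- livers. Of the 3 red blood cell markers, Hba-a1 and Hbb-bs were lower, with a summed level of 15235 to 19345 in WT and 8819 to 10742 in tRNA-Phe-1-1-/- livers. None of the 5 Kupffer cell or 5 cholangiocyte markers was called in that comparison, whereas of 5 endothelial markers 2 were higher and 1 lower, of 5 stellate cell markers 1 was higher, of 8 pericentral markers 2 were higher, and of 8 periportal markers 1 was higher and 1 lower. The part of these cells in the differences between genotypes was not tested.

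The clock genes set some livers apart. Dbp, a clock output gene, had 67.4, 28.7 and 67.5 normalised counts in WT and 2776, 853 and 3069 in tRNA-Phe-1-1-/- livers A, B and C (log2 fold change 5.23 ± 0.98, adjusted p = 0.00452). The core clock gene Bmal1 had 1479, 1591 and 1889 in WT and 98.8, 466 and 101 in tRNA-Phe-1-1-/- livers (log2 fold change -3.29 ± 0.59, adjusted p = 0.00374). In tRNA-Phe-2-1-/- livers Dbp was 36.9, 84.8 and 383, and in tRNA-Phe-3-1-/- livers it was 170.0, 2173 and 1343. Livers B and C of tRNA-Phe-3-1-/- therefore had Dbp in the range of the tRNA-Phe-1-1-/- livers, whereas liver A did not. For Per1, a clock gene that responds to light and hormones, tRNA-Phe-3-1-/- livers had 49.0, 120.4 and 28.2, below the 739.6 to 1079.6 of tRNA-Phe-1-1-/- livers. The hour of tissue collection is not given in the sources used here, so the hour and the genotype cannot be told apart for tRNA-Phe-1-1-/- livers. The clock genes were chosen after their values were seen, and their part in the other differences was not tested.

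Loss of tRNA-Phe-1-1 was accompanied by lower GST transcripts in the liver. Of the 20 GST members tested, 12 fell against WT and none rose, with a median log2 fold change of -0.63 beside -0.01 for all genes tested. Of the 19 UGT members 2 rose, Ugt2b37 and Ugt2b38, and 1 fell, Ugt2b35 (median -0.09). Of the 7 SULT members 1 fell, Sult1c2 (median -0.49). In all, 14 of 46 members were lower and 2 were higher (adjusted p under 0.05, limma with Benjamini-Hochberg adjustment over 15856 genes), that is 30.4% of members lower where 9.08% of all genes tested were called lower and 8.27% higher. The count of 16 members fell to 9 without WT B or without tRNA-Phe-1-1-/- A and to 10 without WT C. The share of all genes called fell from 17.3% to 11.3% without WT B, 10.2% without tRNA-Phe-1-1-/- A and 9.28% without WT C. The member count was 15 without tRNA-Phe-1-1-/- B (14.4% of all genes), the liver with the lowest values of Ugt1a1, Ugt3a2, Sult1b1 and Sult2a8. It was 16 without WT A (14.7% of all genes) and 18 without tRNA-Phe-1-1-/- C (16.1%). The 8 GST members that were not called had log2 fold changes from -2.14 (Gsta13) to 0.07 (Gstp1), and the 16 UGT members from -1.27 (Ugt1a5) to 2.08 (Ugt1a8). When the counts of a sub-family were summed, Gsta, Gsto (log2 fold change -0.47 ± 0.12, adjusted p = 0.0197) and Gstt (log2 fold change -0.60 ± 0.15, adjusted p = 0.0199) were lower, and Gstm (log2 fold change -0.65 ± 0.24, adjusted p = 0.0818), Gstp (log2 fold change 0.06 ± 0.19, adjusted p = 0.851), Ugt1a (log2 fold change -0.33 ± 0.14, adjusted p = 0.119) and Sult1 (log2 fold change 0.40 ± 0.16, adjusted p = 0.105) were not called.

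**Figure D1:**
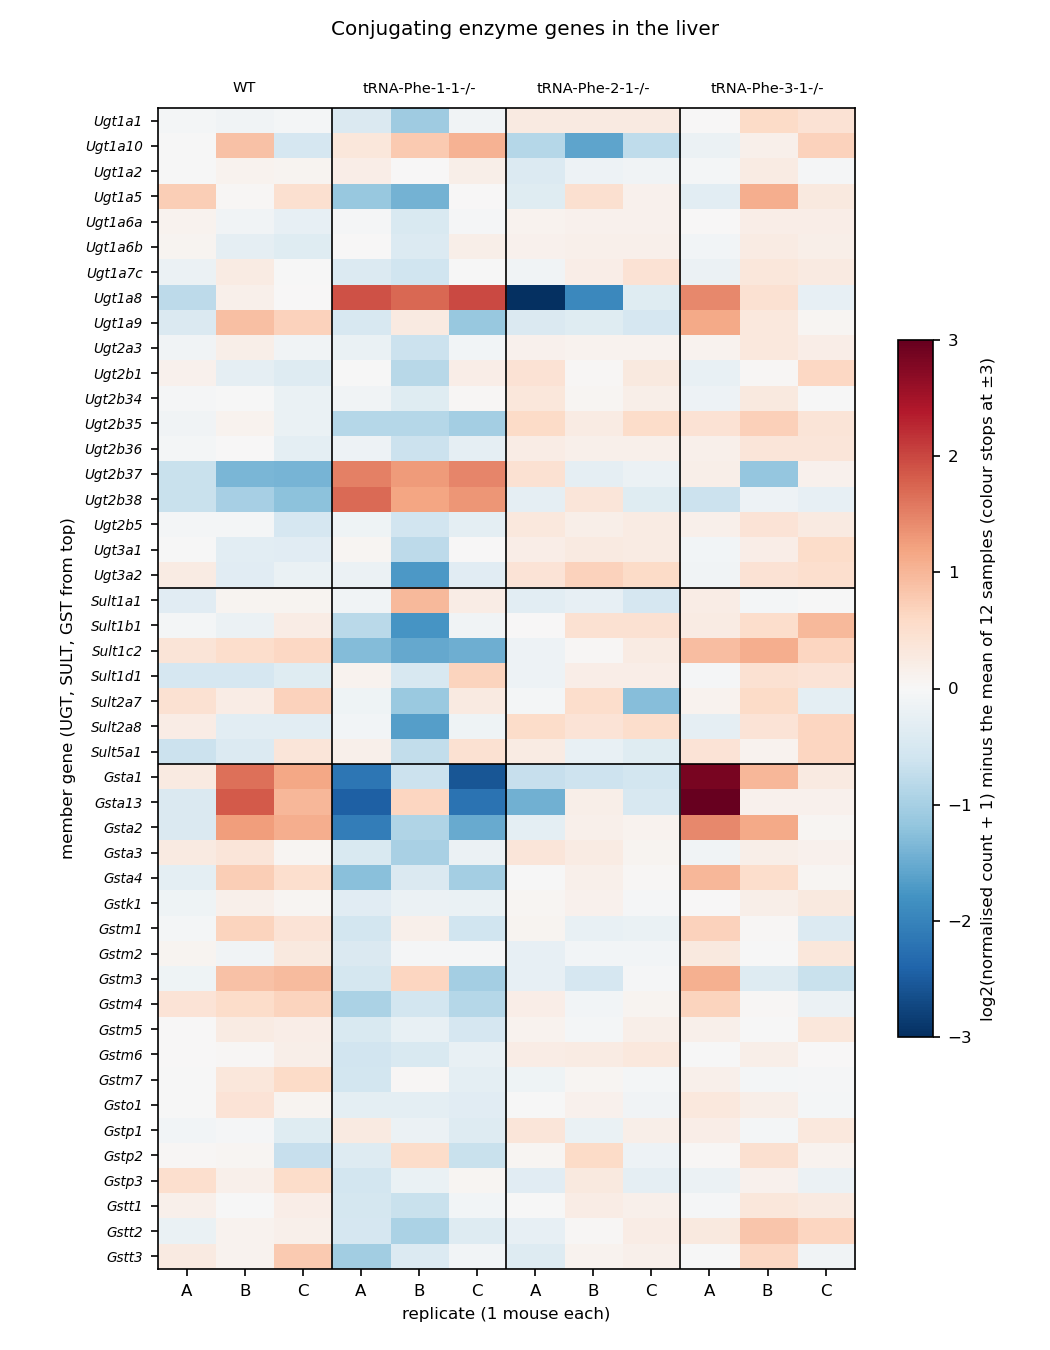
Heat map of the 46 members tested in the liver (rows, UGT, SULT and GST from top) in the 12 livers (columns, grouped by genotype). Colour gives log2(normalised count + 1) minus the row mean. Most GST rows are blue in the 3 tRNA-Phe-1-1-/- livers, Ugt2b37 and Ugt2b38 are red there, and Gsta1, Gsta13 and Gsta2 also vary between the livers of a genotype.

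**Figure D2:**
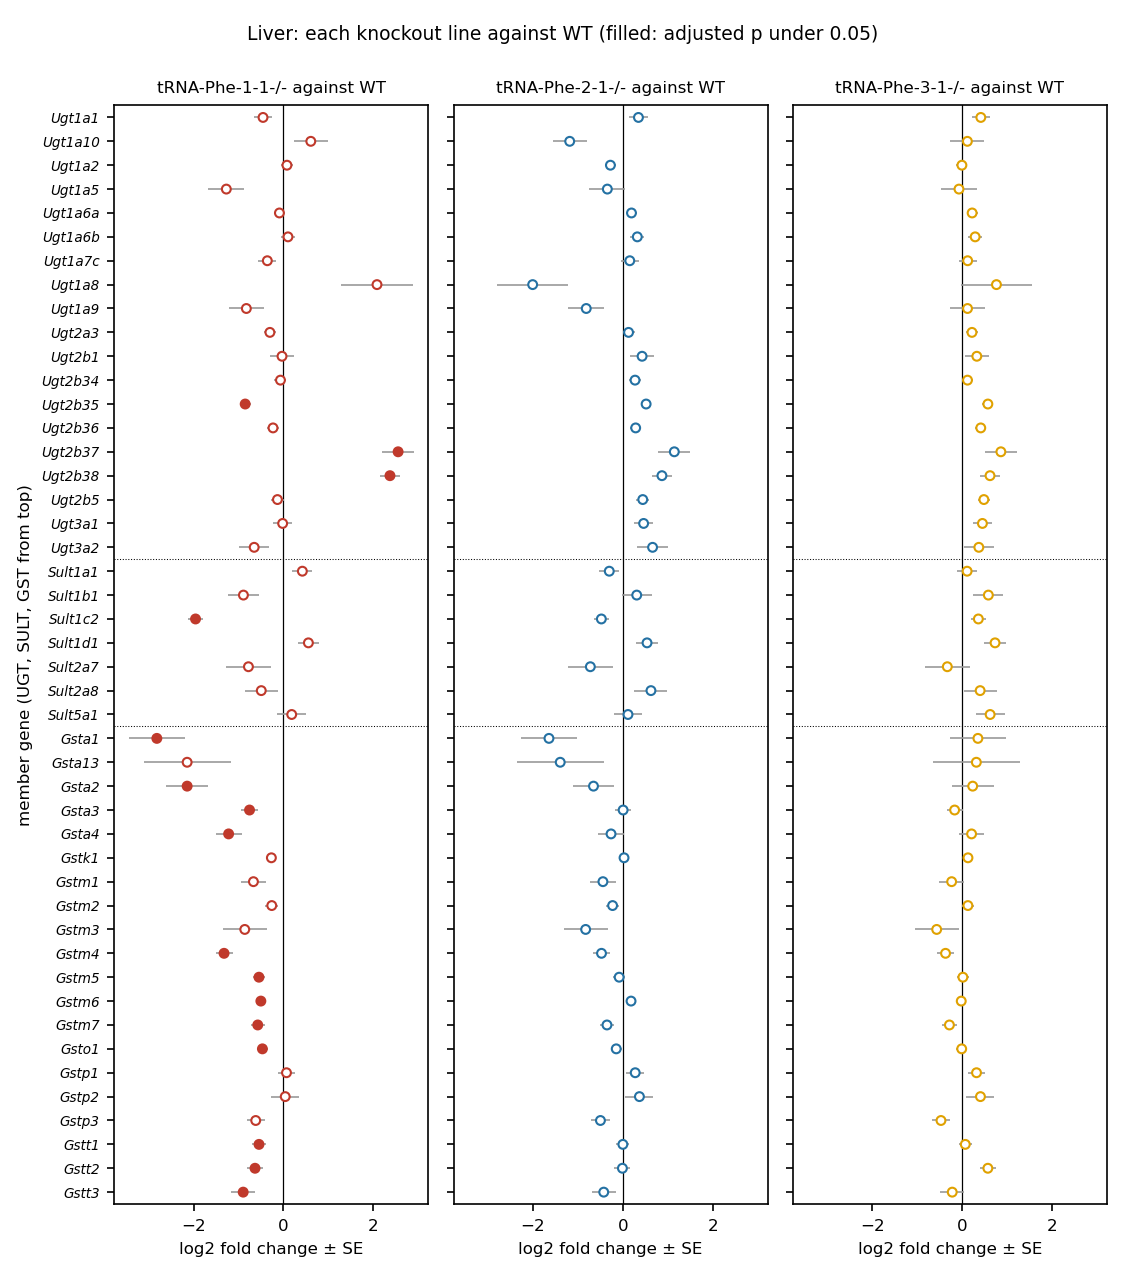
Log2 fold change ± SE of the same 46 members for each line against the 3 WT livers (n = 3 per group). Filled points passed an adjusted p of 0.05. There are 16 of them for tRNA-Phe-1-1-/- and 0 for each of the other lines.

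The alpha class GST enzymes conjugate lipid peroxidation products and bind bile pigments. Gsta1 (ENSMUSG00000074183.3, chr9:78230669-78242683, RefSeq, GRCm38.p6) had 116, 302 and 215 normalised counts in WT livers A, B and C and 20.7, 60.8 and 15.3 in tRNA-Phe-1-1-/- livers. It had 59.3, 62.0 and 65.4 in tRNA-Phe-2-1-/- and 701, 194 and 116 in tRNA-Phe-3-1-/- livers. All tRNA-Phe-1-1-/- livers were below all WT livers (log2 fold change -2.82 ± 0.63, adjusted p = 0.0111), and tRNA-Phe-3-1-/- A was far above every other liver. The tRNA-Phe-2-1-/- livers were also below all WT livers, without passing the threshold (log2 fold change -1.64 ± 0.63, adjusted p = 0.272). Gsta2 (ENSMUSG00000057933.10, chr9:78331018-78347192) had 519.8, 1695 and 1514 in WT and 166, 375 and 247 in tRNA-Phe-1-1-/- livers (log2 fold change -2.14 ± 0.46, adjusted p = 0.00945). Here too the groups did not overlap, but WT A, at 519.8, was nearer to the knockout livers than to the other WT livers. In tRNA-Phe-3-1-/- livers Gsta2 had 1914, 1546 and 733, and as for Gsta1 livers B and C were lower than liver A.

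Gsta1 and Gsta2 lie on the same chromosome and their upstream sequences are shown because both fell together. Over the 250 bases before the start of transcription (RefSeq, GRCm38.p6) they were 72.6% identical in a global alignment, and capitals mark the longest run of bases that they share, 29 in length. Gsta1 lies on the plus strand (chr9:78230419-78230668) and Gsta2 on the minus strand (chr9:78347193-78347395), each written 5′ to 3′ in the direction of the gene. The last 47 bases of the Gsta2 window lie inside the annotated gene and are not shown.
Gsta1: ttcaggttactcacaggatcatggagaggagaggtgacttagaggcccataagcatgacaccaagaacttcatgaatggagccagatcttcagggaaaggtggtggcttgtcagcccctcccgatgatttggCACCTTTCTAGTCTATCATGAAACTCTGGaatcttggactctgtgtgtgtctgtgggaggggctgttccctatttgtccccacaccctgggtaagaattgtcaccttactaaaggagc
Gsta2: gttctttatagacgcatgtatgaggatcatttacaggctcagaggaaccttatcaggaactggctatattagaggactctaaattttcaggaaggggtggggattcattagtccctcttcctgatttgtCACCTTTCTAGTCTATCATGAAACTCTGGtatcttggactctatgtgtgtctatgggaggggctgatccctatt

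Gsta1 shares 93.4% of the 31-base words of its transcripts with other genes, most of them with Gsta13, so reads could be divided between the pair. The sum of Gsta1 and Gsta13 had 161, 523 and 339 normalised counts in WT and 31.1, 157 and 27.6 in tRNA-Phe-1-1-/- livers. On this sum, which was chosen after the data were seen, the groups nearly touched and the log2 fold change was -2.55 (adjusted p = 0.0399). Gsta13 alone was not called (log2 fold change -2.14 ± 0.97, adjusted p = 0.154), with 10.4, 96.1 and 12.3 in tRNA-Phe-1-1-/- livers. Gsta4, which conjugates the lipid aldehyde 4-hydroxynonenal, had 1125, 2293 and 1956 in WT and 581, 1017 and 673 in tRNA-Phe-1-1-/- livers (log2 fold change -1.22 ± 0.29, adjusted p = 0.0144). Its adjusted p was 0.0581 without WT B, 0.0609 without WT C and 0.0614 without tRNA-Phe-1-1-/- A.

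Gsta3, the form that detoxifies aflatoxin epoxide in mice, had 49466, 52773 and 42803 normalised counts in WT and 30068, 21059 and 36655 in tRNA-Phe-1-1-/- livers. The groups were apart (log2 fold change -0.76 ± 0.18, adjusted p = 0.0147), and the adjusted p was 0.0562 without WT B. The remaining alpha member, Gsta5, had at most 3.95 and was not tested. Summed over the 6 alpha genes, the class was lower in tRNA-Phe-1-1-/- livers (log2 fold change -0.79 ± 0.16, adjusted p = 0.00734), and most of this sum was Gsta3.

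The mu class, which conjugates epoxides and quinones, fell in part. Gstm4 had 1101, 1201 and 1302 normalised counts in WT and 428, 559.9 and 457 in tRNA-Phe-1-1-/- livers (log2 fold change -1.32 ± 0.19, adjusted p = 0.00105). The tRNA-Phe-2-1-/- livers lay between them at 942, 775 and 877, below each WT liver but above each tRNA-Phe-1-1-/- liver. In tRNA-Phe-3-1-/- livers Gstm4 had 1312, 837 and 725, with livers B and C below all WT livers and liver A above them. Gstm6 had 2148, 2183 and 2408 in WT, 1423, 1545 and 1802 in tRNA-Phe-1-1-/- (log2 fold change -0.50 ± 0.10, adjusted p = 0.00482) and 2469, 2519.5 and 2653 in tRNA-Phe-2-1-/- livers. The 3 genotypes did not overlap for Gstm6, with tRNA-Phe-1-1-/- below and tRNA-Phe-2-1-/- above WT. Gstm7 overlapped by 1 liver, at 1076, 1355 and 1608 in WT and 736, 1099 and 880.0 in tRNA-Phe-1-1-/- livers (log2 fold change -0.57 ± 0.16, adjusted p = 0.0311). Its call was lost in 4 of the 6 fits that left out 1 of these livers, without WT B (adjusted p = 0.0832), WT C (0.128), tRNA-Phe-1-1-/- A (0.12) or tRNA-Phe-1-1-/- C (0.0664). Gstm5, chosen after its values were seen, had 236, 278 and 266 in WT and 170.3, 200.1 and 164 in tRNA-Phe-1-1-/- livers (log2 fold change -0.55 ± 0.14, adjusted p = 0.0183).

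Gstm1, Gstm2 and Gstm3 were not called, and like Gstm5 they were chosen after their values were seen. Gstm1 had 18458, 30774 and 25795 in WT and 13221, 21409 and 12887 in tRNA-Phe-1-1-/- livers, and both groups spanned wide, overlapping ranges (log2 fold change -0.67 ± 0.28, adjusted p = 0.125). Gstm3 showed the same order of livers within WT, low in A and high in B and C, at 673, 1351 and 1426. In tRNA-Phe-3-1-/- livers it had 1541, 559 and 461, so that livers B and C were below all WT livers for this gene too. The order of WT livers also held for Gsta1, Gsta2, Gsta4, Gsta13 and Ugt1a9, which means that WT A was the lowest control for each of them.

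NRF2 acts through the antioxidant response element, and the 250 bases upstream of each start were therefore searched for TGACNNNGC on both strands. A promoter in the RefSeq set was matched by symbol for 55 of 65 members. The motif was present for 3 of these 55 members, and for 3 of the 40 that were tested in the liver. These were Gsta3, Gstm5 and Gstm7, all of which were among the 12 matched members that fell in tRNA-Phe-1-1-/- livers. The Gstm7 match lay in the window of an inner start, within the annotated gene, and the window of its outer start held none. Of all 32851 promoters of this length 10.2% held TGACNNNGC. That share counts each promoter, whereas a member was counted if any of its starts held the motif. GCGTG, the core of the element bound by the aryl hydrocarbon receptor, was present for 2 of these 12 and 9 of the 40 tested. It was present for 28.2% of all promoters and overlapped TGACNNNGC in Gstm5. GTTAAT, searched for the factor HNF1, was present for 1 of these 12, 9 of the 40 tested and 6.43% of all promoters. The upstream bases of Gsta3 (chr1:21240335-21240564, plus strand) and Gstm5 (chr3:107895604-107895853, plus strand) are shown with the match to TGACNNNGC in capitals. The last 20 bases of the Gsta3 window lie inside the annotated gene and are left out.
Gsta3: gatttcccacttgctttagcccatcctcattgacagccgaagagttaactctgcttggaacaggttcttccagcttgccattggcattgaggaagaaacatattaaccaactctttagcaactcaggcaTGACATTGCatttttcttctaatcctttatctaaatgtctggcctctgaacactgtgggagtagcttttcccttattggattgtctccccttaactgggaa
Gstm5: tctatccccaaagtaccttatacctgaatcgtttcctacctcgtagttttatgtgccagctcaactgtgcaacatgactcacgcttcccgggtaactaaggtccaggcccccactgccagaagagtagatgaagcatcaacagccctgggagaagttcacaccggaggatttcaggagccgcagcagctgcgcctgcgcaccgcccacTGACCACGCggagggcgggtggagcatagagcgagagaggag

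Of the theta class, which acts on small halogenated compounds and sulfate esters, 3 members fell in tRNA-Phe-1-1-/- livers. Gstt2 had 1218, 1514 and 1554 normalised counts in WT, 984, 728 and 1070.3 in tRNA-Phe-1-1-/- (log2 fold change -0.63 ± 0.18, adjusted p = 0.0321) and 1729, 2488 and 2188 in tRNA-Phe-3-1-/- livers. Each tRNA-Phe-1-1-/- liver was below and each tRNA-Phe-3-1-/- liver above the whole WT range. Gstt3 had 1161, 1041 and 1654 in WT and 469.6, 725 and 908 in tRNA-Phe-1-1-/- livers (log2 fold change -0.90 ± 0.27, adjusted p = 0.0414). Leaving out any of these 6 livers other than tRNA-Phe-1-1-/- C ended the Gstt3 call, with adjusted p-values from 0.0525 (without WT B) to 0.159 (without WT C). The Gstt2 call was lost in 4 of 6 such fits, without WT B or C or tRNA-Phe-1-1-/- A or B, with adjusted p-values from 0.0621 to 0.115. Gstt1, chosen after its values were seen, had 6573, 5875 and 6797 in WT and 4100.1, 3722 and 5539 in tRNA-Phe-1-1-/- livers (log2 fold change -0.54 ± 0.15, adjusted p = 0.0264).

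Among the smaller classes, Gsto1, which reduces dehydroascorbate and arsenic species, had 2137, 2846 and 2257 in WT and 1741, 1751 and 1698 in tRNA-Phe-1-1-/- livers (log2 fold change -0.47 ± 0.12, adjusted p = 0.0207). Gstk1, the kappa form of mitochondria and peroxisomes, had 2498, 3064 and 2877 in WT and 2169, 2428 and 2388 in tRNA-Phe-1-1-/- livers and missed the threshold (log2 fold change -0.27 ± 0.10, adjusted p = 0.0794). The pi class did not pass: Gstp3 had 389.8, 305 and 402 in WT and 189, 242 and 289 in tRNA-Phe-1-1-/- livers (log2 fold change -0.62 ± 0.20, adjusted p = 0.0582). For Gstp1, chosen after its values were seen, the log2 fold change was 0.07 ± 0.20 and its levels were 57606 to 72734 in WT and 57085 to 90147 in tRNA-Phe-1-1-/- livers.

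**Figure D3:**
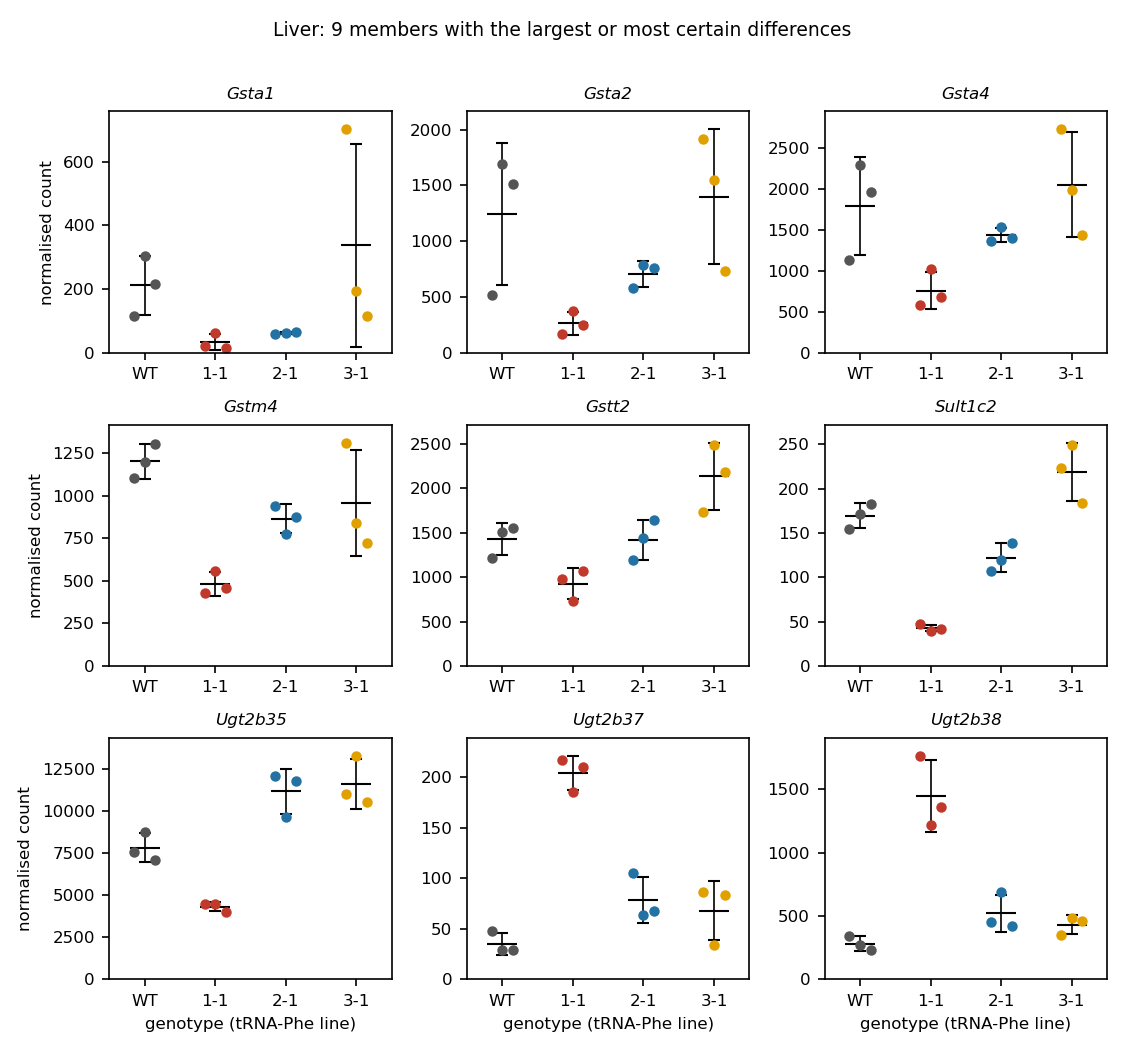
Normalised counts of 9 members in each liver (points) by genotype, with the group mean (line) and SD (bar, n = 3) on linear axes from 0. Sult1c2, Gstm4 and Ugt2b35 are lowest and Ugt2b37 and Ugt2b38 highest in all 3 tRNA-Phe-1-1-/- livers.

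The UGT2B enzymes glucuronidate steroids, bile acids and fatty acids, and 3 of their genes changed in tRNA-Phe-1-1-/- livers in opposite directions. Ugt2b38 (ENSMUSG00000061906.5, chr5:87409939-87424203) had 341, 271 and 228 normalised counts in WT and 1766, 1221 and 1361 in tRNA-Phe-1-1-/- livers. Every tRNA-Phe-1-1-/- liver was far above every other liver (log2 fold change 2.37 ± 0.22, adjusted p = 0.000118), and the other lines had 449.5, 691 and 417 (tRNA-Phe-2-1-/-) and 346, 485 and 457 (tRNA-Phe-3-1-/-). Ugt2b37 (ENSMUSG00000057425.3, chr5:87240492-87254788) had 47.9, 28.7 and 28.5 in WT, 217, 185 and 211 in tRNA-Phe-1-1-/- (log2 fold change 2.55 ± 0.35, adjusted p = 0.000876), 105, 63.1 and 67.3 in tRNA-Phe-2-1-/- and 86.4, 33.8 and 83.4 in tRNA-Phe-3-1-/- livers. For both genes every tRNA-Phe-2-1-/- liver was also above every WT liver, and for Ugt2b38 so was every tRNA-Phe-3-1-/- liver. None of these rises passed the threshold in the limma fit. The tRNA-Phe-2-1-/- livers overlapped the tRNA-Phe-3-1-/- livers for both genes. Ugt2b35 (ENSMUSG00000035811.10, chr5:87000860-87013274) moved the other way, with 7564, 8762 and 7085 in WT and 4447, 4481 and 4005 in tRNA-Phe-1-1-/- livers (log2 fold change -0.85 ± 0.12, adjusted p = 0.000917). In tRNA-Phe-2-1-/- livers it had 12108, 9653 and 11801 and in tRNA-Phe-3-1-/- livers 10986, 13287 and 10556, above every WT liver in both lines.

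The upstream bases of Ugt2b37 (chr5:87254789-87255038) and Ugt2b38 (chr5:87424204-87424453) are shown beside those of Ugt2b5 (chr5:87140341-87140590), a close relative that was not called in tRNA-Phe-1-1-/- livers against WT. All 3 lie on the minus strand of chromosome 5 (RefSeq, GRCm38.p6). Over 250 bases Ugt2b37 and Ugt2b38 were 85.6% identical, Ugt2b38 and Ugt2b5 82.3%, and Ugt2b37 and Ugt2b5 73.0%. Identity with Ugt2b35 was lower, at 55.5% for Ugt2b37, 57.0% for Ugt2b38 and 57.2% for Ugt2b5. Capitals mark the longest run shared by all 3 sequences, 62 bases near the start of transcription. Neither TGACNNNGC nor GCGTG was found in the Ugt2b37 or Ugt2b38 window.
Ugt2b37: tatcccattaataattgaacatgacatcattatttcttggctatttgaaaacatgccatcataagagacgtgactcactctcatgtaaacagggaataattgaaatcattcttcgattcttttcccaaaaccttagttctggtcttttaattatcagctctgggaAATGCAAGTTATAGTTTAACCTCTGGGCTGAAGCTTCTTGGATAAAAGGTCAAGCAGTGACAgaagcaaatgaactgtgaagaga
Ugt2b38: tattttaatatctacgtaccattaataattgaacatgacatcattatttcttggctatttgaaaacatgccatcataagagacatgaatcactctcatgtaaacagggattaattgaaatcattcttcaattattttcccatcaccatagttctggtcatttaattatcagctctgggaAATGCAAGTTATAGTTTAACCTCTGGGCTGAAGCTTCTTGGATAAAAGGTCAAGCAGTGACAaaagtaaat
Ugt2b5: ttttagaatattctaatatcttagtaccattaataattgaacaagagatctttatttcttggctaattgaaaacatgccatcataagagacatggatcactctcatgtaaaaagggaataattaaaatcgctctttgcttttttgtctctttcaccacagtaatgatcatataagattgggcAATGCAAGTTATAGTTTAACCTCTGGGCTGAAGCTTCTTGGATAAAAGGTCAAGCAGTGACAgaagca

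Ugt2b5 had 31040.4, 31185 and 22909 normalised counts in WT and 29418, 21814 and 26144 in tRNA-Phe-1-1-/- livers (log2 fold change -0.13 ± 0.14, adjusted p = 0.559), with overlapping groups. It was chosen after its values were seen. Ugt2b38 shares 52.9% of its 31-base words with other genes and Ugt2b37 shares 34.4%, in both cases mostly with Ugt2b5, so the level of each is uncertain. The sum of Ugt2b37 and Ugt2b38, also chosen later, rose by 2.39 on the log2 scale (adjusted p = 5.13e-05, limma). Both genes had already been called higher, so their sum is no separate support. It leaves out Ugt2b5 and cannot test how reads were divided with that gene. Summed over the 7 Ugt2b genes, no difference from WT was detected (log2 fold change -0.14 ± 0.16, adjusted p = 0.596).

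The 9 Ugt1 genes are 1 locus, in which a first exon of each gene is spliced to exons common to all, and 58.3% to 85.8% of their 31-base words were shared. Ugt1a1, the enzyme that conjugates bilirubin, had 16849, 16338 and 16763 normalised counts in WT and 12943, 8432 and 16404 in tRNA-Phe-1-1-/- livers (log2 fold change -0.46 ± 0.20, adjusted p = 0.146). It was not called against WT, and tRNA-Phe-1-1-/- B was lower than the other livers. Ugt1a8 had 10.7, 21.7 and 19.5 in WT, 75.3, 66.1 and 79.8 in tRNA-Phe-1-1-/-, 0, 4.35 and 14.7 in tRNA-Phe-2-1-/- and 54.7, 27.0 and 16.1 in tRNA-Phe-3-1-/- livers. Its tRNA-Phe-1-1-/- livers were above all others, yet against WT the call missed the threshold (log2 fold change 2.08 ± 0.80, adjusted p = 0.0953). Ugt1a10 had 53.7, 99.8 and 37.6 in WT and 68.7, 93.5 and 114 in tRNA-Phe-1-1-/- livers (log2 fold change 0.61 ± 0.38, adjusted p = 0.299). Ugt3a2, of a family that transfers other sugars than glucuronic acid, had 2710.3, 1782 and 1995 in WT and 2017, 688 and 1789 in tRNA-Phe-1-1-/- livers (log2 fold change -0.65 ± 0.34, adjusted p = 0.211).

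Among the sulfotransferases Sult1c2 (ENSMUSG00000023122.6, chr17:53829637-53845958), of the phenol sulfotransferase subfamily, had the lowest F-test p of the family (8.72e-05 after adjustment, any genotype). It had 154, 171 and 183 normalised counts in WT and 47.1, 39.7 and 42.0 in tRNA-Phe-1-1-/- livers (log2 fold change -1.96 ± 0.17, adjusted p = 5.87e-05). In tRNA-Phe-2-1-/- livers it had 107, 119.6 and 139 and in tRNA-Phe-3-1-/- livers 223, 249.8 and 184. The 4 genotypes did not overlap, from tRNA-Phe-1-1-/- at the bottom through tRNA-Phe-2-1-/- and WT to tRNA-Phe-3-1-/-, although only the comparisons with tRNA-Phe-1-1-/- passed the threshold. The other 6 sulfotransferases tested in the liver (Sult1a1, Sult1b1, Sult1d1, Sult2a7, Sult2a8 and Sult5a1) had log2 fold changes from -0.89 to 0.55 against WT, none past the threshold.

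Of the 14 Sult genes under the filter, Sult2a1 to Sult2a6, Sult3a1 and Sult3a2 had at most 2.59 normalised counts in any liver. These genes are more abundant in female than in male mouse livers. The methods describe males, and the sex of each library was not checked here. Sult1e1, the oestrogen sulfotransferase, had 0 in all WT livers and 6.59, 2.65 and 12.3 in tRNA-Phe-1-1-/- livers, below the filter and not tested. Both sets of genes were chosen after their values were seen.

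Neither of the other lines had a member past the threshold against the same WT livers. For tRNA-Phe-2-1-/- livers 0 of 46 members were called by limma where 0.132% of all genes were. An unadjusted p under 0.05 was found for 14 of the 46, a larger share than the 14.9% of all genes. EdgeR called 0 and DESeq2 3 (Ugt2b35, Ugt2b37 and Ugt2b38, all higher, where 3.55% of all genes were called). For tRNA-Phe-3-1-/- livers 0 of 46 were called where 0.883% of all genes were, 8 had an unadjusted p under 0.05 (16.1% of all genes did, a share close to that of the members), and edgeR called 0 and DESeq2 5 (Ugt2b35, Ugt2b36, Ugt2b5, Gstt2 and Sult1d1, all higher, where 5.29% of all genes were called). The nearest to the threshold was Ugt2b35 in both lines, with log2 fold change 0.52 ± 0.12, adjusted p = 0.107 for tRNA-Phe-2-1-/- and log2 fold change 0.57 ± 0.12, adjusted p = 0.0516 for tRNA-Phe-3-1-/-. The median GST difference from WT was -0.25 in tRNA-Phe-2-1-/- and 0.04 in tRNA-Phe-3-1-/- livers, beside -0.63 in tRNA-Phe-1-1-/- livers. Over all 46 members the median was 0.00 in tRNA-Phe-2-1-/- livers and 0.22 in tRNA-Phe-3-1-/- livers, where all genes tested had 0.00 and 0.01. The members that only DESeq2 called were chosen after their values were seen.

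Set against the other knockout lines, tRNA-Phe-1-1-/- livers differed in members that were not called against WT. Against tRNA-Phe-2-1-/-, 5 members were higher (7.37% of all genes were) and 16 lower (8.53% of all genes). The higher ones were Ugt1a8 (log2 fold change 4.09 ± 0.80, adjusted p = 0.00621), Ugt1a10 (log2 fold change 1.79 ± 0.38, adjusted p = 0.00952), Ugt2b37, Ugt2b38 and Sult1a1. For Ugt1a10, tRNA-Phe-2-1-/- livers had 29.6, 17.4 and 31.3, below every tRNA-Phe-1-1-/- liver. The largest falls were those of Gsta2 (log2 fold change -1.49 ± 0.46, adjusted p = 0.049), Sult1c2 (log2 fold change -1.48 ± 0.17, adjusted p = 0.000332) and Ugt2b35 (log2 fold change -1.37 ± 0.12, adjusted p = 9.01e-05). For Gsta2, tRNA-Phe-2-1-/- livers had 576, 784 and 759, and its call was lost in 5 of the 6 fits that left out 1 of these livers, with adjusted p-values from 0.0764 (without tRNA-Phe-2-1-/- A) to 0.16 (without tRNA-Phe-1-1-/- A) and only without tRNA-Phe-1-1-/- B under 0.05. The count of 21 was 12 without tRNA-Phe-2-1-/- A, 7 without B and 8 without C. The share of all genes called in these fits is not given here.

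Against tRNA-Phe-3-1-/-, 2 members were higher (7.45% of all genes were) and 18 lower (8.63% of all genes). Ugt2b37 and Ugt2b38 were again the higher ones, and the largest falls were Gsta1 (log2 fold change -3.17 ± 0.63, adjusted p = 0.00704), Gsta2 (log2 fold change -2.38 ± 0.46, adjusted p = 0.00636) and Sult1c2 (log2 fold change -2.32 ± 0.17, adjusted p = 5.79e-05). Ugt1a1 was lower than in tRNA-Phe-2-1-/- livers (log2 fold change -0.80 ± 0.20, adjusted p = 0.0211) and than in tRNA-Phe-3-1-/- livers (log2 fold change -0.87 ± 0.20, adjusted p = 0.0148). Ugt1a1 and Sult1a1 in the liver were chosen after their values were seen. These comparisons share the tRNA-Phe-1-1-/- livers with the comparison against WT. Between livers of tRNA-Phe-2-1-/- mice and of tRNA-Phe-3-1-/- mice 0 members and 0% of all genes were called by limma. There, 7 of 46 members had an unadjusted p under 0.05, a larger share than the 6.68% of all genes. EdgeR called 0 and DESeq2 1, Sult1c2 (0.183% of all genes). Over the 4 genotypes, the moderated F-test called 20 of 46 members where 17% of all genes were called. That count was 9 without tRNA-Phe-1-1-/- A and 13 without tRNA-Phe-2-1-/- B, and the share of all genes called in these fits is not given here.

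Genes that supply the conjugation reactions were also followed in tRNA-Phe-1-1-/- livers. Of 7 tested genes of glutathione supply 3 were lower and 0 higher against WT. Gclc, the catalytic subunit of the enzyme that limits glutathione synthesis, had 15292 ± 2153 in WT and 4213 ± 613 in tRNA-Phe-1-1-/- livers (log2 fold change -1.86 ± 0.20, adjusted p = 0.000239). Its modifier subunit Gclm had 6103 ± 329 in WT and 4659 ± 271 in tRNA-Phe-1-1-/- livers (log2 fold change -0.39 ± 0.09, adjusted p = 0.0168), and Cth, which makes cysteine, had 13830.0 ± 4001 in WT and 7008 ± 2231 in tRNA-Phe-1-1-/- livers (log2 fold change -0.98 ± 0.24, adjusted p = 0.0174). Of 7 genes of PAPS supply 2 were lower, the PAPS synthase Papss2 (log2 fold change -1.47 ± 0.18, adjusted p = 0.000427) and the sulfate transporter Slc26a1 (log2 fold change -0.35 ± 0.10, adjusted p = 0.0357), and 1 was higher, the phosphatase Bpnt1 (log2 fold change 0.39 ± 0.09, adjusted p = 0.0143). Of 4 genes of UDP-glucuronate supply, Slc35b1 was higher (log2 fold change 0.67 ± 0.18, adjusted p = 0.0274) and Slc35d1 lower (log2 fold change -0.31 ± 0.09, adjusted p = 0.0426). Ugp2, which makes UDP-glucose, was not called (log2 fold change 0.23 ± 0.22, adjusted p = 0.514).

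Of 10 transporters of conjugates 3 were lower and 0 higher. Slco1a4, an uptake carrier of organic anions, had 3520.5 ± 1466 in WT and 323 ± 96.0 in tRNA-Phe-1-1-/- livers (log2 fold change -3.39 ± 0.45, adjusted p = 0.000732). The efflux pumps Abcc3 (log2 fold change -0.98 ± 0.22, adjusted p = 0.0106) and Abcc6 (log2 fold change -0.60 ± 0.08, adjusted p = 0.000622) were also lower. Of 13 genes for xenobiotic and lipid receptors and their partners 4 were higher and 0 lower, among them Por, the reductase that feeds cytochromes P450 (log2 fold change 1.57 ± 0.26, adjusted p = 0.00241), and the nuclear receptors Rxra (log2 fold change 0.73 ± 0.14, adjusted p = 0.00476) and Hnf4a (log2 fold change 0.50 ± 0.13, adjusted p = 0.0202). Nfe2l2, which encodes NRF2, was not called (log2 fold change -0.32 ± 0.14, adjusted p = 0.148) and was chosen after its values were seen. Of 5 genes listed for deconjugation 1, Sumf1, was higher (log2 fold change 0.33 ± 0.08, adjusted p = 0.0213). Sumf1 does not itself encode an enzyme that removes a conjugate. Arsb (log2 fold change -0.38 ± 0.14, adjusted p = 0.0794) and Sumf2 (log2 fold change -0.26 ± 0.22, adjusted p = 0.449) were not called. Of 2 microsomal glutathione transferases tested, Mgst3 was lower (log2 fold change -0.94 ± 0.26, adjusted p = 0.0275) and Mgst1 was not called (log2 fold change -0.19 ± 0.19, adjusted p = 0.532). In tRNA-Phe-2-1-/- livers none of the genes tested in these 7 lists was called by limma against WT, and in tRNA-Phe-3-1-/- livers 1 was, the glutathione synthetase Gss (log2 fold change 0.68 ± 0.11, adjusted p = 0.0298), chosen after its values were seen. In the brain none was called in any line against WT.

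In the brain Sult1a1 was higher after loss of tRNA-Phe-1-1, and no other member was called. Sult1a1, the main phenol sulfotransferase, had 193, 66.6 and 169 normalised counts in WT and 369, 516 and 408 in tRNA-Phe-1-1-/- brains. It had 158, 147 and 119.6 in tRNA-Phe-2-1-/- and 126, 139.6 and 155 in tRNA-Phe-3-1-/- brains. Every tRNA-Phe-1-1-/- brain was above every other brain, and the gene rose against WT (log2 fold change 1.71 ± 0.33, adjusted p = 0.0395) and against tRNA-Phe-3-1-/- (log2 fold change 1.60 ± 0.33, adjusted p = 0.0362). It was 1 of 21 members called in each of these 2 comparisons, where 1.05% and 2.11% of all genes were called. The call against WT rested on each of 4 brains, with an adjusted p of 0.0873 without WT C and of 0.0599, 0.154 and 0.129 without tRNA-Phe-1-1-/- A, B and C, and it was 0.0645 without a variance trend and 0.0504 with no filter. The call against tRNA-Phe-3-1-/- was lost when any of the 6 brains compared was left out, with adjusted p-values from 0.0567 (without tRNA-Phe-3-1-/- B) to 0.14 (without tRNA-Phe-1-1-/- B). In the liver Sult1a1 had 5374, 7143 and 7197 in WT and 6294, 13238 and 7942 in tRNA-Phe-1-1-/- mice, overlapping groups (log2 fold change 0.42 ± 0.22, adjusted p = 0.221). The clock gene Per2 was 582 to 931 in WT and 1414 to 1460.0 in tRNA-Phe-1-1-/- brains (log2 fold change 1.00 ± 0.16, adjusted p = 0.0202). Per3 was higher too (log2 fold change 0.44 ± 0.09, adjusted p = 0.0474). Bmal1 (log2 fold change -0.08 ± 0.14), Clock, Npas2, Nr1d1, Dbp, Per1, Ciart and Tef were not called in this comparison. Their adjusted p-values ran from 0.0608 (Ciart, log2 fold change 0.84 ± 0.19) to 0.906 (Nr1d1). These clock genes were chosen after their values were seen, and their part in the Sult1a1 difference was not tested.

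**Figure D4:**
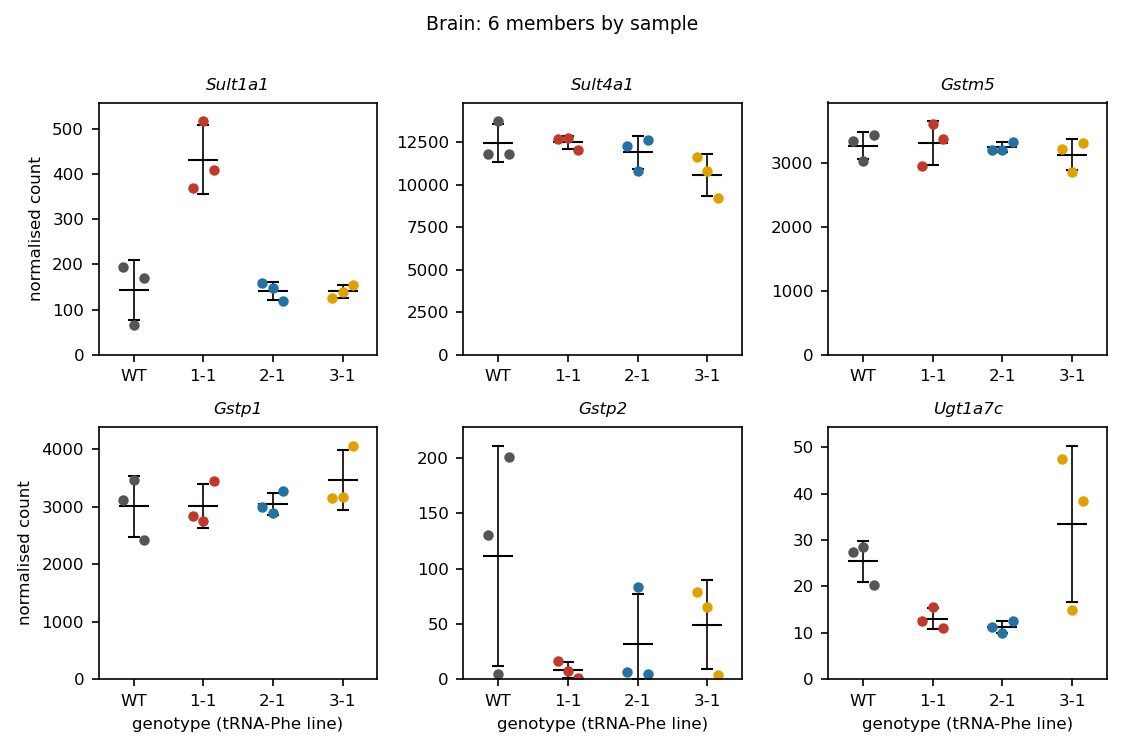
Normalised counts of 6 members in each brain (points) by genotype, with the group mean (line) and SD (bar, n = 3, cut at 0) on linear axes from 0. Sult1a1 is higher in the 3 tRNA-Phe-1-1-/- brains, Gstm5 and Gstp1 overlap between tRNA-Phe-1-1-/- and WT brains, Sult4a1 is lowest in tRNA-Phe-3-1-/- C, and Gstp2 varies widely between brains of 1 genotype.

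Members called in the remaining brain comparisons were 0 of 21 for tRNA-Phe-2-1-/- and for tRNA-Phe-3-1-/- against WT (0% of all genes in both), 0 for tRNA-Phe-1-1-/- brains set against tRNA-Phe-2-1-/- (0.53% of all genes), and 0 for tRNA-Phe-2-1-/- against tRNA-Phe-3-1-/- (0% of all genes). At an unadjusted p under 0.05 there were 2, 2, 1 and 3 members in these 4 comparisons, where 5.57%, 12.3%, 13.7% and 9.93% of all genes were, edgeR called 0 in each, and DESeq2 called 1, Sult1a1, in the third of them and 0 in the others. In the third comparison Sult1a1 was higher by as much as in the called ones but missed the threshold (log2 fold change 1.59 ± 0.33, adjusted p = 0.0563), which it passed without WT B (adjusted p = 0.00701, limma). Over any genotype the F-test called 0 of 21 members where 0.634% of all genes were called, and Sult1a1 was nearest (adjusted p = 0.0599).

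Sult4a1, the sulfotransferase typical of neurons, had 11813, 13739 and 11804 in WT and 12682, 12742 and 12071 in tRNA-Phe-1-1-/- brains (log2 fold change 0.01 ± 0.10, adjusted p = 0.978), and the groups overlapped. In tRNA-Phe-3-1-/- brains it had 11627, 10831 and 9236, each below every WT brain, without passing the threshold (log2 fold change -0.24 ± 0.10, adjusted p = 0.357). Gstm5 and Gstp1 had log2 fold changes of 0.02 ± 0.09 and 0.01 ± 0.14. These 3 genes were chosen after their values were seen. Gsta4, with the lowest F-test p of the alpha class, had 691 to 863 in WT and 653 to 771 in tRNA-Phe-1-1-/- brains, and Gsto1 had 565 to 673 and 509 to 539.7. Neither passed the threshold (adjusted p = 0.592 and 0.387). Gstk1 and Gstt2 had log2 fold changes of -0.02 ± 0.16 and -0.36 ± 0.39. Over the 21 members the median difference from WT was -0.02 in tRNA-Phe-1-1-/-, -0.07 in tRNA-Phe-2-1-/- and 0.11 in tRNA-Phe-3-1-/- brains, where the median of all genes tested lay within 0.01 of 0.

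Ugt1a7c had 27.4, 28.5 and 20.3 normalised counts in WT, 12.6, 15.6 and 11.02 in tRNA-Phe-1-1-/-, 11.3, 10.0 and 12.6 in tRNA-Phe-2-1-/- and 47.4, 14.8 and 38.5 in tRNA-Phe-3-1-/- brains. Every tRNA-Phe-1-1-/- and tRNA-Phe-2-1-/- brain lay below every WT brain without reaching the threshold (log2 fold change -0.91 ± 0.39, adjusted p = 0.287 for tRNA-Phe-1-1-/-, log2 fold change -1.09 ± 0.39, adjusted p = 0.892 for tRNA-Phe-2-1-/-). Without tRNA-Phe-3-1-/- B, its lowest brain in that line, Ugt1a7c was called lower in tRNA-Phe-1-1-/- than in tRNA-Phe-3-1-/- brains (log2 fold change -1.65, adjusted p = 0.0309, limma), beside log2 fold change -1.16 ± 0.39, adjusted p = 0.141 with all brains. Gstp2 ranged from 1.00 to 201 over the 12 brains and from 4.23 to 201 within WT alone. Of its 31-base words 57.1% are shared with other genes, mostly Gstp1, so its count is uncertain.

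Some brains differed in choroid plexus and in liver transcripts. The summed level of 5 choroid plexus markers was 6547, 627 and 13097 normalised counts in WT, 191, 413 and 568 in tRNA-Phe-1-1-/-, 189, 365 and 52579 in tRNA-Phe-2-1-/- and 16333, 172 and 26495 in tRNA-Phe-3-1-/- brains A, B and C. Gstm6 had 67.7, 71.4 and 87.1 in tRNA-Phe-2-1-/- and 155, 66.3 and 213 in tRNA-Phe-3-1-/- brains, beside 74.4, 55.0 and 60.9 in WT and 34.4, 68.6 and 108 in tRNA-Phe-1-1-/- brains. Its 2 highest values were in tRNA-Phe-3-1-/- A and C, 2 of the 3 brains with the highest marker sum, whereas the next highest was in tRNA-Phe-1-1-/- C, where that sum was low, and the part of choroid plexus in this was not tested. The oligodendrocyte markers summed to 107815 to 128608 in WT and 40865 to 77819 in tRNA-Phe-1-1-/- brains, apart from each other in the same comparison as Sult1a1. They summed to 77044, 59261 and 142704 in tRNA-Phe-2-1-/- and 73048, 93357 and 157449 in tRNA-Phe-3-1-/- brains A, B and C. Sums in the tRNA-Phe-1-1-/- range thus also occurred in tRNA-Phe-2-1-/- A and B and tRNA-Phe-3-1-/- A, where Sult1a1 had 158, 147 and 126. None of the 5 oligodendrocyte markers was called, and their part in the Sult1a1 difference was not tested.

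Of the members tested in the liver, 28 were below the filter in the brain. Their summed level was 179, 39.1 and 35.0 normalised counts in WT, 125, 15.6 and 9.02 in tRNA-Phe-1-1-/-, 51.3, 61.4 and 134 in tRNA-Phe-2-1-/- and 45.3, 20.1 and 32.6 in tRNA-Phe-3-1-/- brains. Alb, the albumin gene of hepatocytes, had 625, 227 and 140.0 in WT, 851, 5.20 and 36.1 in tRNA-Phe-1-1-/-, 309.8, 599 and 877 in tRNA-Phe-2-1-/- and 3.23, 9.60 and 36.5 in tRNA-Phe-3-1-/- brains. The 3 brains with the highest member sum, WT A, tRNA-Phe-1-1-/- A and tRNA-Phe-2-1-/- C, were also the 3 with the highest Alb. The source of these low counts was not tested.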

How the data were processed

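RNA from brain and liver was measured in 24 libraries, 3 per genotype and tissue, and samples were grouped by the labels. The authors trimmed reads with Trim Galore and cutadapt, checked them with FastQC, aligned them with STAR to GRCm38.p6, estimated transcript abundance with Salmon (GENCODE vM24, library type ISR, with sequence and GC bias correction) and summed it to genes with tximport. The authors deposited, for each tissue, normalised counts (signal) after division by DESeq2 size factors. Their tables of comparisons, which hold means, log2 fold changes, standard errors and s-values, were not used.

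Symbols were matched for 93.2% of 55434 Ensembl IDs (GENCODE vM39). Positions of 63 of 65 members, and promoters of 55, came from RefSeq (GRCm38.p6). Genes that reached 10 normalised counts on average in a tissue were tested on log2(normalised count + 1) with limma 3.58.1 (R 4.3.3; linear model over the 12 libraries of the tissue, moderated test with a variance trend, Benjamini-Hochberg adjustment, threshold 0.05). The levels of each library divided by its smallest step were whole within 0.01 for 100% of values, which gave the recovered reads and allowed edgeR 4.0.16 and DESeq2 1.42.0 as alternatives. Salmon's estimates need not be whole before rounding, and multi-gene reads are divided between genes by that model. The fit was tried on simulated data that took the mean level of each gene over the 12 livers and a fixed dispersion for every gene. Changes were placed in the tRNA-Phe-1-1-/- livers. With 15760 genes in the fit, 81 of 99 genes changed 2-fold were recovered, and 98 of 99 changed 4-fold. These shares do not describe genes whose spread differs from that dispersion.

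Genes were named by a rule. In each liver comparison with WT it took up to 10 called members in each direction, in the brain up to 4, and between lines up to 3. It added the member of each family with the lowest F-test p and, per pathway list, 3 genes with the lowest adjusted p. The rule for members reads symbols alone, but the families and the lists were chosen with earlier results of these data known. Of the 4 receptor genes counted as higher, 1 is not reported here. Genes outside the rule that appear in the text were chosen after their values were seen. With 3 against 3 samples an exact permutation test cannot give a p under 0.1, so none was used.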

Additional observations from a re-analysis of the deposited data

Results flagged for a closer look

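In the liver 4 members lay on opposite sides of WT in 2 lines, with every liver of one line above all WT livers and every liver of the other below them. This rule was applied to members alone, so the share of all genes that met it is not known. The lines were picked because their livers lay apart, so the adjusted p-values below are no separate support. Sult1c2 was below WT in tRNA-Phe-1-1-/- and above it in tRNA-Phe-3-1-/- livers, and the 2 lines differed by -2.32 on the log2 scale (adjusted p = 5.79e-05, limma). It was also below WT in tRNA-Phe-2-1-/- livers, and the difference of tRNA-Phe-2-1-/- livers from tRNA-Phe-3-1-/- livers, -0.84, did not pass the threshold (adjusted p = 0.593, limma). Gstt2 was below WT in tRNA-Phe-1-1-/- and above it in tRNA-Phe-3-1-/- livers, a difference of -1.20 (adjusted p = 0.0015, limma). Ugt2b35 was below WT in tRNA-Phe-1-1-/- livers and above it in both other lines, with differences of -1.37 from tRNA-Phe-2-1-/- (adjusted p = 9.01e-05, limma) and -1.42 from tRNA-Phe-3-1-/- livers (adjusted p = 8.53e-05, limma). Gstm6 was below WT in tRNA-Phe-1-1-/- and above it in tRNA-Phe-2-1-/- livers, a difference of -0.69 (adjusted p = 0.00104, limma). None of the increases over WT passed the threshold in the reported limma fit, whereas DESeq2 called Ugt2b35 higher in both lines and Gstt2 higher in tRNA-Phe-3-1-/- livers, and limma with a minimum mean of 50 called Ugt2b35 higher in tRNA-Phe-3-1-/- livers. The 2 effects set side by side share the WT livers, so a gap to one side of WT is not independent of a gap to the other.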

How the results depend on the processing

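Counts of members called were recomputed with other pseudocounts, filters, scaling, variance priors and tools, and 114 of 126 stayed within 1.5 times the reported count, as did 77 of 96 when 1 sample was left out. The exceptions in the liver were 3 members with DESeq2 for tRNA-Phe-2-1-/- against WT, 5 with DESeq2 and 1 (Ugt2b35) with a minimum mean of 50 for tRNA-Phe-3-1-/- against WT, and 1 with DESeq2 between these lines. In the brain, the 1 call of tRNA-Phe-1-1-/- against WT became 0 with no filter, no variance trend or the replicate block, the call against tRNA-Phe-3-1-/- became 0 with no variance trend or the replicate block, DESeq2 called 1 member against tRNA-Phe-2-1-/-, and over any genotype edgeR called 1 and DESeq2 2 (Sult1a1 and Ugt1a7c). Leaving out 1 sample gave 9 to 18 members in the liver for tRNA-Phe-1-1-/- against WT, 7 to 20 against tRNA-Phe-2-1-/- and 9 to 20 over any genotype, and in the brain 0 to 1 against WT, 0 to 1 against tRNA-Phe-3-1-/- and 0 to 1 over any genotype. The member called without tRNA-Phe-3-1-/- B was Ugt1a7c, and the one called over any genotype without WT B was Sult1a1. The share of all genes called for tRNA-Phe-1-1-/- livers against WT also fell without 1 sample, from 17.3% to between 9.28% and 16.1%. It is not given here for the other comparisons. The causes were not tested.

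The replicate letters did not pair the livers (mean correlation -0.01 over same-letter pairs). For the brains pairing was less clear, with a mean of 0.07 and a highest value of 0.49. Of 18 same-letter pairs per tissue, 3 in the liver and 7 in the brain had deviations correlated above 0.1, and 2 of 12 livers and 7 of 12 brains correlated best with their own letter. With the letter as a block 16 members were called in the liver for tRNA-Phe-1-1-/- against WT. In the brain neither call of Sult1a1 was kept with the block.

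For single named members, 212 of 224 values kept their call under other settings and 118 of 150 without 1 sample, with the other 12 and 32 no longer past the threshold. Summing a whole sub-family in place of its member kept 12 calls, lost 3 and reversed 10. The reversed values were -0.14 for Ugt2b37 and Ugt2b38 and 0.40 for Sult1c2 (tRNA-Phe-1-1-/- against WT), -0.51 for Ugt1a8 and Ugt1a10, -0.52 for Ugt2b38 and 0.47 for Sult1c2 (against tRNA-Phe-2-1-/-), and -0.52 for Ugt2b37 and Ugt2b38 and 0.12 for Sult1c2 (against tRNA-Phe-3-1-/-). Such a sum is ruled by its most abundant genes. The sums of Gsta1 with Gsta13 and of Ugt2b37 with Ugt2b38 were chosen after seeing the data. Depth limits the genes near the minimum mean, such as Ugt1a8 in the liver and Ugt1a7c in the brain.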
